A study of Mus musculus with 24 samples.

Results

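Notch2-mKO mice carried Cre recombinase from the Mlc1f locus together with floxed Notch2 alleles (Mlc1fCre/+;Notch2f/f), and their gastrocnemius muscle was compared with that of wild-type (WT) mice 14 days after streptozotocin. The mice called WT carried the same floxed alleles without Cre (Notch2f/f), so the 2 groups differed in the Cre allele as well as in the deletion. All were of the C57BL/6 strain and had been given streptozotocin in 1 injection of 150 mg per kg, a toxin of the insulin-producing cells of the pancreas. The comparison was defined by genotype and treatment labels and holds 8 of the 24 RNA sequencing libraries of the series, 4 Notch2-mKO diabetes libraries and 4 WT diabetes libraries. The other 16 libraries, from control mice and from mice after 7 days of hindlimb suspension (unloading), 4 of each genotype in each condition, entered the fit to estimate the spread and gave the values set beside the diabetic ones. The labels give neither the sex nor the age of the mice and do not state whether each replicate was a mouse of its own, so the spread behind the p-values may be partly technical.

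Notch2 is a cell surface receptor that is activated by ligands of the Delta and Jagged families on neighbouring cells. After ligand binding the receptor is cut by ADAM proteases and gamma-secretase, and its released intracellular part joins Rbpj in the nucleus to switch on genes such as those of the Hes and Hey families. In muscle, Notch signalling is best known for keeping satellite cells, the muscle stem cells, in a resting state. Lack of insulin causes muscle wasting, in which FOXO transcription factors raise the ubiquitin ligases atrogin-1 (Fbxo32) and MuRF1 (Trim63), which mark muscle proteins for breakdown. Mlc1f is a fast myosin light chain made from the Myl1 gene, and Cre from this locus is active in muscle fibres, whereas the RNA came from whole muscle with all its cell types.

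Totals in the 8 diabetic libraries lay between 40750597 and 48202876 estimated counts in Notch2-mKO and between 42040950 and 56369917 in WT. A single WT library stood furthest apart. WT diabetes replicate 3 scored 54.19 on the first principal component of the 8 libraries, which held 27% of the variance, whereas the other 7 scored between -18.31 and 9.4. Among 9430 genes that averaged 2 CPM or more (counts scaled to a common library total), it had the highest level of the 8 libraries for 26.6% of genes and the lowest for 28.8%, against 6.02 to 15.3% and 6.38 to 14.6% for each of the other libraries. Fold changes without it are therefore given beside those that depend on it. On the second component, which held 17.2% of the variance, Notch2-mKO diabetes replicates 3 and 4 were lowest, at -32.08 and -19.51. WT diabetes replicate 4 was highest there, at 23.7. WT diabetes replicates 1 and 4 lay apart on the third component, which held 13.4% of the variance, at 30.83 and -26.63. The other libraries scored between -9.44 and 7.97 there. Libraries also differed in base composition. A base composition measure was taken as the mean log2 level of the 1196 genes below 42% GC less that of the 1925 genes above 56% GC. It was 0.13 ± 0.14 in Notch2-mKO diabetes and 0.35 ± 0.14 in WT diabetes (SD, n = 4 each), a difference of -0.21 with overlapping groups (exact permutation test, two-sided, p = 0.0857, where 0.0286 is the smallest possible). The same difference between the genotypes was 0.33 in controls and -0.37 in unloading.

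**Figure D1:**
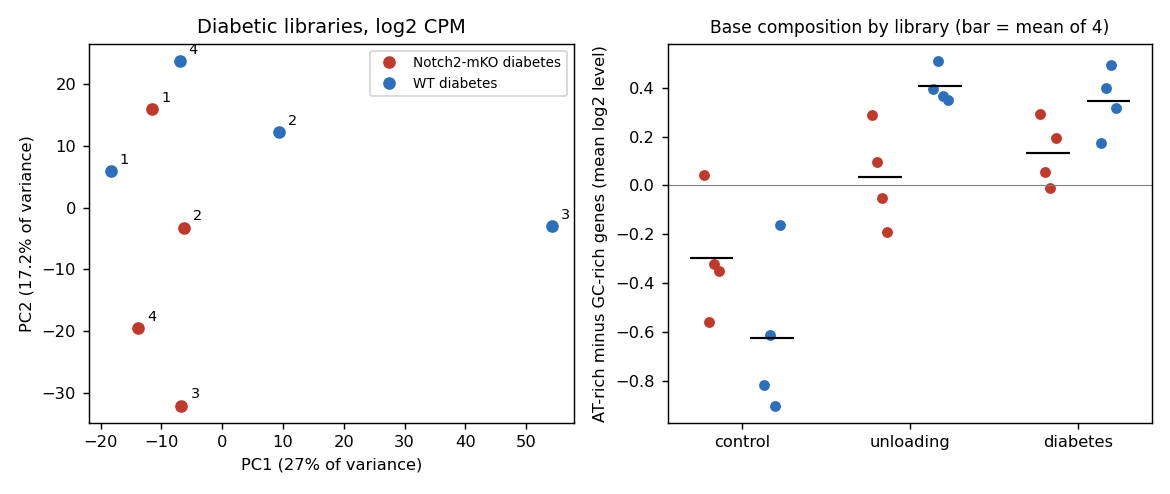
The left panel plots the 8 diabetic libraries on the first 2 principal components of log2 CPM, red for Notch2-mKO and blue for WT, with replicate numbers. WT replicate 3 lies at 54.19 on the first component and the other 7 libraries between -18.31 and 9.4. The right panel plots the AT-rich minus GC-rich level of all 24 libraries by condition, with the mean of 4 as a bar.

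Pdk4, a kinase that shuts glucose carbon out of the mitochondria and is raised by lack of insulin, was higher in diabetes in both genotypes. It is named after its values were seen, so it does not check the diabetic label. Its level was between 804 and 1184 CPM in Notch2-mKO diabetes and between 111 and 446 CPM in Notch2-mKO controls. In WT it was between 1006 and 1899 CPM in diabetes and between 73.7 and 352 CPM in controls. The diabetic and control libraries did not overlap in either genotype, and the change was called in Notch2-mKO (log2 fold change 1.68, adjusted p = 0.0401) and in WT (2.78, adjusted p = 0.000178). A gene counted as called when its p from edgeR's quasi-likelihood test, adjusted after Benjamini and Hochberg for 13048 genes, was below 0.05. By that rule diabetes changed 730 genes (5.59%) in Notch2-mKO and 4354 (33.4%) in WT, each against controls of the same genotype. With the trend of each library along GC content and gene length removed, 575 genes were called in Notch2-mKO and 3323 in WT. The difference between the 2 responses was called for 0 genes in the same test (smallest adjusted p = 0.414). From controls to diabetes the base composition measure went from -0.30 to 0.13 in Notch2-mKO and from -0.62 to 0.35 in WT.

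No gene passed the test between diabetic Notch2-mKO and diabetic WT muscle. Of 13048 genes, 0 were called (0%), and the smallest adjusted p was 0.872. DESeq2 also called 0, with a smallest adjusted p of 0.0712. At an unadjusted p below 0.05, 306 genes were higher (2.35%) and 386 lower (2.96%) in Notch2-mKO, in all 692, and DESeq2 gave 735. The 4 Notch2-mKO libraries all lay above the 4 WT libraries for 232 genes (1.78%) and all below for 233 (1.79%). Without WT diabetes replicate 3 the unadjusted counts were 225 higher (1.71%) and 216 lower (1.64%) of 13189 genes, 0 were called, and 265 of the 692 genes still had a p below 0.05. Other libraries moved the unadjusted count as well, to 390 genes without Notch2-mKO diabetes replicate 3 and to 1278 without WT diabetes replicate 1. With the trend of each library along GC content and gene length removed, 309 genes were higher (2.37%) and 332 lower (2.54%) at that threshold, and 0 were called. For the 9430 genes at or above 2 CPM the median half-width of the 95% interval of the log2 fold change was 0.32, and 96.6% of intervals lay within 1 log2 unit of 0 on both sides.

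Notch2 itself, on chromosome 3 (98013538 to 98150367, mm10), was weakly expressed. Its level was 1.70, 2.16, 1.15 and 2.12 CPM in the 4 Notch2-mKO diabetes libraries and 1.74, 2.18, 3.18 and 2.004 CPM in the 4 WT diabetes libraries, from 51 to 107 and from 75 to 166 counts per library. The groups overlapped, with Notch2-mKO replicate 3 lowest and WT replicate 3 highest. The log2 fold change was -0.36 (95% interval -0.83 to 0.12, adjusted p = 0.878) and -0.15 without WT replicate 3. The counts cover the whole gene and all cell types, so they do not check the deletion in fibres, and in whole muscle fewer cells of a type and less RNA per cell cannot be told apart.

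None of the other receptors passed the test. Notch1 had 3.65, 6.44, 5.21 and 3.57 CPM in Notch2-mKO diabetes and 4.06, 5.59, 6.73 and 5.42 CPM in WT diabetes (log2 fold change -0.21, SE 0.19; -0.09 without WT replicate 3). Notch3, a receptor of vascular smooth muscle, had 12.75 to 22.0 CPM in Notch2-mKO and 16.1 to 22.8 CPM in WT. Notch4, found mainly in endothelium, had 7.83 to 12.4 CPM in Notch2-mKO and 7.81 to 11.5 CPM in WT. All 3 ranges overlapped, and none of the 4 receptors had an unadjusted p below 0.05.

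Of 6 ligand genes listed, 5 were measured, and all 5 had log2 fold changes below 0, between -0.51 and -0.04, none with an unadjusted p below 0.05. Their median of -0.14 came to -0.01 without WT replicate 3. The ligand Jag1 was the only one without overlap, at 1.74, 1.66, 1.601 and 2.02 CPM in Notch2-mKO diabetes against 2.23, 2.23, 3.36 and 2.17 CPM in WT diabetes (log2 fold change -0.51, 95% interval -1.09 to 0.07, adjusted p = 0.872). Its WT replicate 3 stood far above the other WT libraries, and without that library the fold change was -0.33. Jag2 had 17.9 to 22.0 CPM in Notch2-mKO and 19.8 to 22.7 CPM in WT. Dll4, a ligand of endothelial cells, had 3.26 to 4.52 CPM in Notch2-mKO and 2.80 to 5.20 CPM in WT.

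The target genes of the pathway gave no call either. Of 8 measured, 2 had log2 fold changes above 0 and 6 below, with a median of -0.08 against -0.0045 for all genes tested. Hes1, a transcriptional repressor induced by Notch, had 4.48, 4.48, 4.67 and 3.52 CPM in Notch2-mKO diabetes and 2.90, 4.60, 3.89 and 3.49 CPM in WT diabetes (log2 fold change 0.21, 95% interval -0.26 to 0.67). Heyl, a related repressor, had 2.34 to 5.51 CPM in Notch2-mKO and 4.17 to 4.93 CPM in WT, so the Notch2-mKO libraries lay on both sides of the WT range. Hes6 had 3.41 to 4.14 CPM in Notch2-mKO and 2.98 to 4.57 CPM in WT. The cell cycle genes Myc and Ccnd1 had log2 fold changes of -0.44 and -0.09, or -0.34 and -0.27 without WT replicate 3, with overlapping groups.

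Among 23 measured genes for Notch processing and nuclear partners, 0 were higher and 1 was lower at an unadjusted p below 0.05. That gene was Furin, the protease that cleaves the receptor during its maturation, with 48.3, 51.8, 50.7 and 46.97 CPM in Notch2-mKO diabetes and 54.8, 58.5, 112.3 and 50.55 CPM in WT diabetes. The WT value at 112.3 CPM was that of replicate 3. The log2 fold change was -0.48 (adjusted p = 0.872) with it and -0.14 without it. Adam10, which cuts the ligand-bound receptor, had a log2 fold change of -0.38 (SE 0.19), and Maml1, a coactivator of the Notch complex, one of -0.30 (SE 0.18).

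The wasting genes were scattered within groups. Fbxo32 (chromosome 15) had 285.5, 310.2, 528.5 and 432 CPM in Notch2-mKO diabetes and 287, 583, 1216 and 425 CPM in WT diabetes. Replicate 3 was highest in WT, and WT replicates 1 and 4 fell within the Notch2-mKO range. The log2 fold change of -0.69 had a 95% interval of -1.81 to 0.43 (adjusted p = 0.898) and came to -0.15 without WT replicate 3. Trim63 (chromosome 4) had 304, 339, 551 and 517 CPM in Notch2-mKO diabetes and 279, 516, 941 and 647 CPM in WT diabetes, with overlapping groups and a log2 fold change of -0.48 (95% interval -1.38 to 0.42), or -0.17 without WT replicate 3. Fbxo30 (chromosome 10), the gene of the ubiquitin ligase MUSA1, had 3.92 to 6.61 CPM in Notch2-mKO and 4.42 to 6.16 CPM in WT.

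Against their own controls, the diabetic responses of these genes were called in WT alone. For Fbxo32 the log2 response was 1.25 in Notch2-mKO (adjusted p = 0.175) and 2.49 in WT (adjusted p = 0.00174). For Trim63 it was 0.84 in Notch2-mKO (adjusted p = 0.262) and 1.63 in WT (adjusted p = 0.00668). The difference between the responses was itself tested and did not pass for Fbxo32 (-1.24, SE 0.77, adjusted p = 0.664) or Trim63 (-0.78, SE 0.62, adjusted p = 0.743). Over all genes 0 of these differences were called (0%) and DESeq2 called 3. At an unadjusted p below 0.05 there were 1142, 368 above 0 and 774 below, and 735 with GC and length effects removed. Those 3 genes, Mtm1, Ckap5 and Zfp287, are named after their values were seen, because the count is small. Mtm1, the gene of the lipid phosphatase myotubularin, had 5.16 to 8.20 CPM in Notch2-mKO diabetes and 3.93 to 7.61 CPM in Notch2-mKO controls, against 8.09 to 9.95 CPM in WT diabetes and 2.38 to 3.59 CPM in WT controls, so that its WT groups lay apart and its Notch2-mKO groups overlapped. In edgeR its difference of -1.23 had an adjusted p of 0.414.

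**Figure D2:**
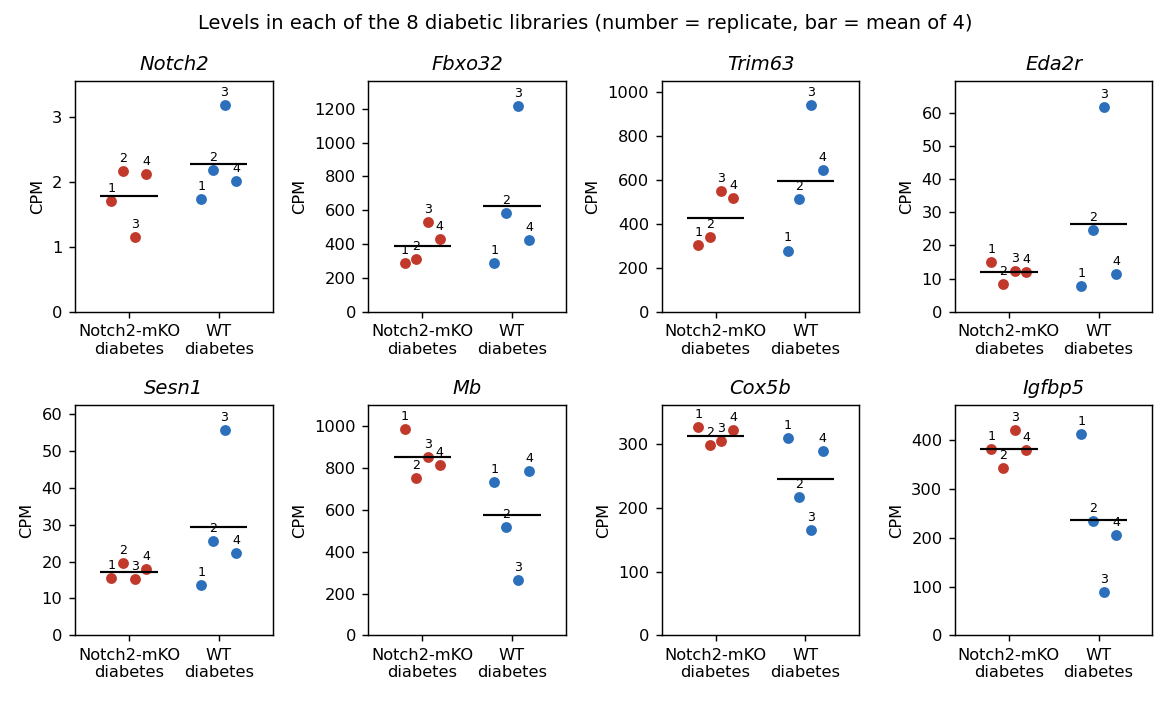
Levels in CPM (vertical axes, from 0) of 8 genes in the 4 Notch2-mKO diabetes libraries (red, left) and the 4 WT diabetes libraries (blue, right), with replicate numbers and the mean of 4 as a bar. WT replicate 3 is highest for Notch2, Fbxo32 (1216 CPM), Trim63, Eda2r and Sesn1 and lowest for Mb, Cox5b and Igfbp5.

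The wider set of 23 muscle ubiquitin ligases had a median log2 fold change of -0.03 (-0.0024 without WT replicate 3), with 0 higher and 1 lower at an unadjusted p below 0.05. The lower one was Nedd4, a ligase of membrane proteins, with 381, 370.0, 384 and 380 CPM in Notch2-mKO diabetes against 399, 440.2, 464 and 434 CPM in WT diabetes. Its groups did not overlap, but the log2 fold change was -0.20 (SE 0.09, adjusted p = 0.872). It was -0.16 without WT replicate 3 and -0.12 with the GC and length trend removed, and both unadjusted p-values then exceeded 0.05. In the opposite direction Znrf1 and Trim54 had log2 fold changes of 0.21 and 0.22, with WT replicate 3 the lowest of the 8 libraries for both, and of 0.10 and 0.16 without it. The 33 proteasome subunits had a median of 0.05 (0.07 without WT replicate 3), with none at an unadjusted p below 0.05 in either direction.

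The 29 autophagy and lysosome genes had a median of 0.0058, or 0.05 without WT replicate 3, and its sign turned under upper quartile scaling (-0.0183). The single member at an unadjusted p below 0.05 was Ctsl, the lysosomal protease cathepsin L, with 93.9, 83.4, 83.3 and 97.1 CPM in Notch2-mKO diabetes and 78.5, 119, 160.1 and 107 CPM in WT diabetes. WT libraries lay on both sides of the Notch2-mKO range, with replicate 3 highest. Its log2 fold change of -0.38 came to -0.18 without that library. Lamp1, a lysosomal membrane protein, had 564 to 703 CPM in Notch2-mKO and 504 to 657 CPM in WT (log2 fold change 0.15, SE 0.10; 0.23 without WT replicate 3). Without that library, 2 of the 29 genes were higher and 0 lower at an unadjusted p below 0.05, and Lamp1 was among the 2.

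Of 25 genes that respond to FOXO factors or glucocorticoids, 21 had log2 fold changes below 0 and 4 above, with a median of -0.13 that came to -0.03 without WT replicate 3. At an unadjusted p below 0.05, 1 was higher and 1 lower. Sesn1, a stress gene that restrains mTORC1, had 15.4, 19.7, 15.4 and 17.97 CPM in Notch2-mKO diabetes and 13.6, 25.6, 55.7 and 22.3 CPM in WT diabetes (log2 fold change -0.78, adjusted p = 0.872; -0.26 without WT replicate 3). Foxo6, a FOXO family member, had 5.66, 6.28, 5.55 and 5.44 CPM in Notch2-mKO diabetes against 5.26, 4.11, 1.97 and 3.52 CPM in WT diabetes, with no overlap and a log2 fold change of 0.63, or 0.42 without WT replicate 3. Sgk1, a kinase induced by glucocorticoids, had 135 to 245 CPM in Notch2-mKO and 137 to 153 CPM in WT, the WT libraries being the tighter group.

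Insulin and IGF signalling genes had a median of -0.18 over 22 members, 16 of them below 0, and of -0.10 without WT replicate 3. Igfbp5, a secreted IGF-binding protein of muscle, was higher at an unadjusted p below 0.05, with 381, 343, 421 and 380.4 CPM in Notch2-mKO diabetes and 414, 234.5, 88.75 and 206 CPM in WT diabetes. WT replicate 1 lay among the Notch2-mKO libraries and WT replicate 3 far below them. Its log2 fold change of 0.69 came to 0.42 without that library. The kinase subunits Pik3ca (log2 fold change -0.41, or -0.25 without WT replicate 3) and Pik3r1 (-0.57, or -0.37) were lower at that threshold. Insr, the insulin receptor gene, had a log2 fold change of -0.38 (SE 0.19), or -0.14 without that library. Without WT replicate 3, none of the 22 had an unadjusted p below 0.05.

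In the myostatin and activin pathway, which limits muscle mass through Smad2 and Smad3, the median over 21 genes was -0.10, or -0.0067 without WT replicate 3. Smad7, the inhibitory Smad, had 1.83, 1.47, 1.04 and 0.665 CPM in Notch2-mKO diabetes and 1.67, 2.18, 3.22 and 2.31 CPM in WT diabetes (log2 fold change -0.90, 95% interval -1.59 to -0.21, adjusted p = 0.872). The groups overlapped through Notch2-mKO replicate 1 alone. Smad2 had 11.66, 11.37, 12.9 and 12.1 CPM in Notch2-mKO against 10.15, 11.1, 9.53 and 10.16 CPM in WT, with no overlap and a log2 fold change of 0.23 (SE 0.10). Both p-values exceeded 0.05 without WT replicate 3. Mstn, the gene of myostatin, had 71.6 to 102.5 CPM in Notch2-mKO and 61.0 to 84.7 CPM in WT.

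The 3 p53 targets with the smallest p had smaller differences without WT replicate 3. Of 14 measured, 13 had log2 fold changes below 0, with a median of -0.27, and 3 were lower at an unadjusted p below 0.05. Eda2r, a receptor of the TNF receptor family linked to muscle wasting, had 14.9, 8.48, 12.4 and 12.01 CPM in Notch2-mKO diabetes and 7.76, 24.6, 61.8 and 11.3 CPM in WT diabetes. Its groups overlapped, and the log2 fold change of -1.14 came to -0.29 without WT replicate 3. Trp53inp1 had 9.20, 7.995, 7.92 and 9.45 CPM in Notch2-mKO and 6.72, 13.95, 17.75 and 11.79 CPM in WT. Its groups overlapped through WT replicate 1 alone, and its log2 fold change was -0.54, or -0.33 without WT replicate 3. Cdkn1a, the cell cycle inhibitor p21, had 26.1 to 32.5 CPM in Notch2-mKO and 19.7, 33.6, 77.3 and 35.3 CPM in WT. Without that library 0 of the 14 genes had an unadjusted p below 0.05, and the median was -0.19.

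Genes of the circadian clock had a median of -0.13 over 17 members, or -0.03 without WT replicate 3, and 2 were lower at an unadjusted p below 0.05. These were Tef, a clock-controlled transcription factor (log2 fold change -0.21), and the repressor Cry1 (-0.47). Cry1 had 5.61 to 9.66 CPM in Notch2-mKO and 7.02, 10.5, 19.3 and 9.11 CPM in WT, the value at 19.3 being that of replicate 3, and its fold change came to -0.10 without it. The time of day of sampling is not given in the labels.

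Among 19 genes of denervation and the neuromuscular junction, 1 was higher and 1 lower at an unadjusted p below 0.05, and the median was 0.0061 (-0.04 without WT replicate 3). Nos1, the neuronal nitric oxide synthase of fibre membranes, had 30.9, 47.4, 56.3 and 39.9 CPM in Notch2-mKO diabetes and 31.9, 27.95, 37.9 and 30.7 CPM in WT diabetes (log2 fold change 0.44, 95% interval 0.07 to 0.81, adjusted p = 0.872). Without WT replicate 3 its difference was 0.53. Chrna1, a subunit of the acetylcholine receptor, had a log2 fold change of -0.40 with that library and -0.09 without it.

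The genes of the mitochondrial respiratory chain had small, evenly signed differences. In complexes II to V, 39 of 40 nuclear-encoded subunits had log2 fold changes above 0, with a median of 0.16 and a highest value of 0.35, and 3 were higher at an unadjusted p below 0.05. In complex I, 33 of 37 were above 0, with a median of 0.16 and 1 at that threshold. Cox5b, a subunit of cytochrome c oxidase, had 327, 298.5, 305 and 321 CPM in Notch2-mKO diabetes and 310.0, 217, 165 and 289.6 CPM in WT diabetes, and Uqcrq of complex III had 247.5, 227, 253 and 249.5 CPM in Notch2-mKO and 219, 186, 140.0 and 222 CPM in WT. Uqcrq did not overlap between the genotypes and Cox5b did, and WT replicate 3 was lowest for both. Without that library the medians were 0.07 for complexes II to V and 0.05 for complex I, and with the GC and length trend removed they were 0.09 and 0.08. The spread between replicates in the mean level of either list (SD 0.20 on the log2 scale) was larger than these medians. Subunits encoded by mitochondrial DNA were not analysed here.

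Few fuel genes had an unadjusted p below 0.05. Over 34 genes of fatty acid uptake and oxidation the median was 0.0097 (-0.05 without WT replicate 3), of no fixed sign across scalings, with none at an unadjusted p below 0.05. Acot2, a mitochondrial acyl-CoA thioesterase, had 16.4, 11.8, 7.04 and 8 CPM in Notch2-mKO diabetes and 15.97, 20.5, 14.5 and 13.8 CPM in WT diabetes (log2 fold change -0.58, SE 0.30). In glucose uptake and glycogen metabolism 2 of 19 genes were lower at that threshold, both regulatory subunits that bring protein phosphatase 1 to glycogen. Ppp1r3d had 6.37, 4.77, 4.24 and 3.18 CPM in Notch2-mKO diabetes and 6.10, 11.45, 7.71 and 5.78 CPM in WT diabetes (log2 fold change -0.74, 95% interval -1.25 to -0.22, adjusted p = 0.872; -0.74 without WT replicate 3). Ppp1r3a, the muscle form, had 205, 148.4, 145.5 and 179 CPM in Notch2-mKO and 172, 268, 283 and 241 CPM in WT (log2 fold change -0.51). That fold change was -0.42 without WT replicate 3 and -0.26 with the GC and length trend removed. Without WT replicate 3, 1 of the 19 genes was lower at an unadjusted p below 0.05. The groups overlapped for both genes.

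No contractile or calcium-handling gene passed the adjusted test. All 10 muscle fibre markers had log2 fold changes above 0, with a median of 0.10 (0.07 without WT replicate 3), and their summed level was 199100 to 224400 CPM in Notch2-mKO and 164900 to 229100 CPM in WT, lowest in WT replicate 3. Myoglobin (Mb), the oxygen store of fibres, had 986, 755, 854 and 815 CPM in Notch2-mKO diabetes and 735, 517, 263 and 785 CPM in WT diabetes (log2 fold change 0.57, adjusted p = 0.872; 0.33 without WT replicate 3). Over 21 genes of myosin heavy chains and fibre type, none had an unadjusted p below 0.05. Jph1, which holds the membranes of the calcium release site together, had 224 to 261 CPM in Notch2-mKO and 265.5 to 309 CPM in WT, with no overlap and a log2 fold change of -0.27 (SE 0.11). Sln, an inhibitor of the calcium pump, had 1.91, 1.41, 1.02 and 1.28 CPM in Notch2-mKO and 0.834, 1.755, 5.003 and 3.24 CPM in WT, a log2 fold change of -0.95 (95% interval -1.86 to -0.04, adjusted p = 0.872) and of -0.47 without WT replicate 3. Jph1 and Sln were the 2 of 17 calcium-handling genes lower at an unadjusted p below 0.05, and without that library 0 were.

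Myl1, which holds the Cre insertion, is named after its values were seen. It had 7307, 5187, 6626 and 6611 CPM in Notch2-mKO diabetes and 9066, 7117, 3382 and 8920 CPM in WT diabetes. In controls it had 9131 to 11330 CPM in Notch2-mKO and 12750 to 15890 CPM in WT. The genotypes overlapped in diabetes, where WT replicate 3 was lowest (log2 fold change -0.15, 95% interval -0.68 to 0.38; -0.38 without that library), and lay apart in controls (-0.48, adjusted p = 0.893).

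Among 23 heat shock proteins and chaperones, with a median of 0.04 (0.06 without WT replicate 3), 0 were higher and 2 lower at an unadjusted p below 0.05. These were Hsp90b1 (log2 fold change -0.38) and Hspa5 (-0.32). Without WT replicate 3 they had -0.26 and -0.18, and 0 of the 23 were lower at that threshold. Hspa5, also called BiP, had 127, 124.5, 117 and 117 CPM in Notch2-mKO diabetes and 119, 142, 193 and 152 CPM in WT diabetes. In the 29 genes of collagen processing and matrix proteins, 1 was higher and 2 lower at that threshold, with a median of -0.02 (-0.07 without WT replicate 3). Timp1, an inhibitor of matrix metalloproteinases, was near the limit of detection at 0.0870, 0.121, 0.180 and 0.0492 CPM in Notch2-mKO diabetes against 0.278, 0.471, 0.671 and 0.376 CPM in WT diabetes. Its groups did not overlap, and a value of 3 counts per library corresponds to between 0.0532 and 0.0736 CPM in these libraries. The log2 fold change was -2.0025 (95% interval -3.25 to -0.75, adjusted p = 0.872). Loxl1 was the higher gene (log2 fold change 0.365, or 0.27 without WT replicate 3), and Tnc was also lower (-0.85, or -0.65).

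**Figure D3:**
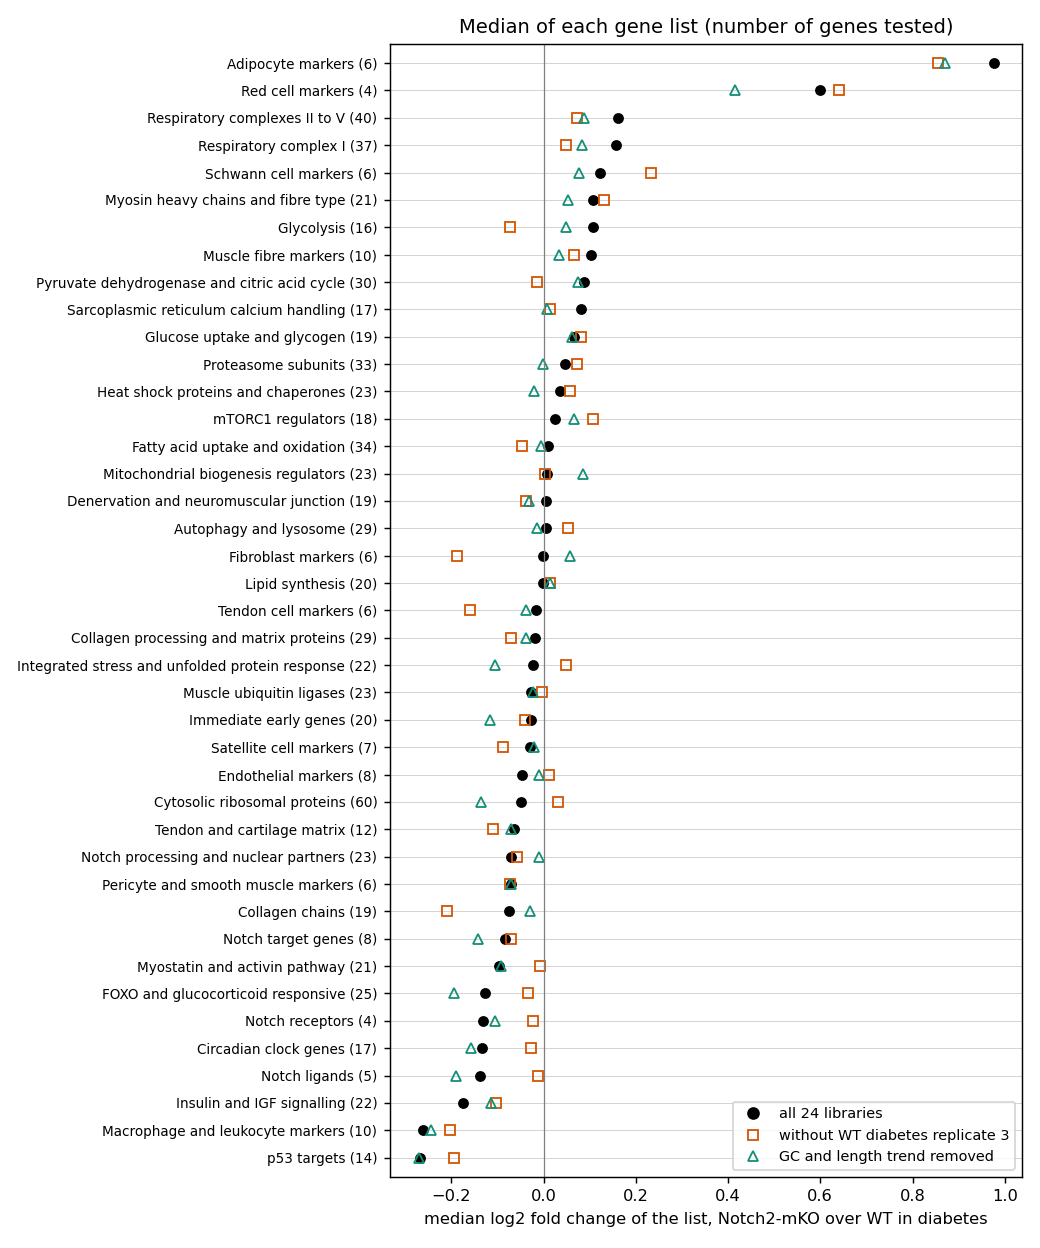
Median log2 fold change, Notch2-mKO over WT in diabetes, of each of 41 gene lists, with the number of genes tested in brackets. Black circles use all 24 libraries, orange squares leave out WT diabetes replicate 3 and green triangles remove the GC and length trend. Respiratory complexes II to V, for example, have medians of 0.16, 0.07 and 0.09.

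Across the 41 lists, 739 genes were measured, of which 16 were higher (2.17%) and 21 lower (2.84%) at an unadjusted p below 0.05, close to the shares over all genes of 2.35% and 2.96%. The lists not described one by one had medians between -0.07 and 0.12, and between -0.21 and 0.23 without WT replicate 3.

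Adipocyte markers had the largest list median, 0.98 over 6 genes, and 4 of the 6 were higher at an unadjusted p below 0.05. Without WT replicate 3, 2 of the 6 were (median 0.86), and likewise 2 with GC and length effects removed (median 0.87). Adiponectin (Adipoq), a hormone of fat cells, had 11.4, 10.9, 3.61 and 2.73 CPM in Notch2-mKO diabetes and 1.74, 2.33, 2.26 and 6.82 CPM in WT diabetes (log2 fold change 1.12, 95% interval 0.26 to 1.98, adjusted p = 0.872). Retn, the gene of resistin, had 2.87, 3.21, 1.42 and 0.738 CPM in Notch2-mKO and 0.232, 0.535, 0.671 and 1.84 CPM in WT. In both genes Notch2-mKO replicates 1 and 2 and WT replicate 4 were the 3 highest libraries, and the groups overlapped. Plin1, which coats fat droplets, and Cfd, the secreted protease adipsin, had the same 3 libraries on top. The other 2 markers were not higher in Notch2-mKO. Fabp4, which endothelial cells also express, had 63.5 to 77.6 CPM in Notch2-mKO and 58.0 to 87.7 CPM in WT, and the leptin gene Lep was at 0 in Notch2-mKO replicates 3 and 4 and in WT replicate 3. The summed markers were 91.07 to 190.3 CPM in Notch2-mKO and 77.6 to 159 CPM in WT.

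Lipid synthesis genes had a median of -0.0021 over 20 members (0.01 without WT replicate 3). Their largest log2 fold change was that of Scd1, the desaturase that makes oleate and is abundant in fat tissue, at 0.96 (95% interval -0.08 to 2.0037). Scd1 had 47.3, 18.7, 9.90 and 8.52 CPM in Notch2-mKO diabetes and 9.502, 5.86, 9.07 and 18.9 CPM in WT diabetes, again highest in Notch2-mKO replicates 1 and 2 and WT replicate 4. The part of the adipocyte markers in the Scd1 values was not tested.

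**Figure D4:**
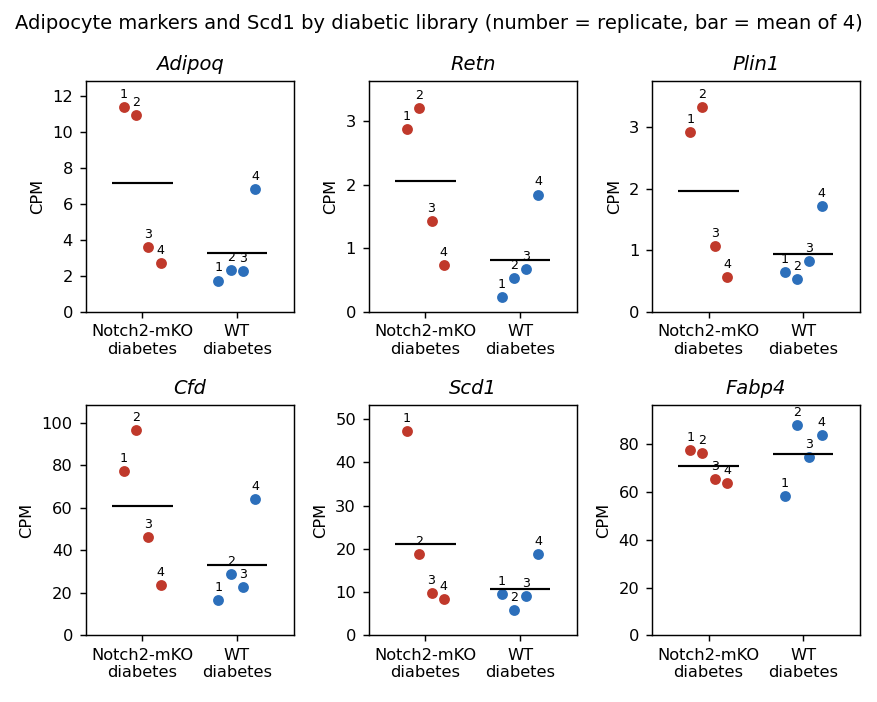
Levels in CPM (vertical axes, from 0) of 5 adipocyte markers and Scd1 in the 4 Notch2-mKO diabetes libraries (red, left) and the 4 WT diabetes libraries (blue, right), with replicate numbers and the mean of 4 as a bar. Notch2-mKO replicates 1 and 2 and WT replicate 4 hold the 3 highest values of Adipoq, Retn, Plin1, Cfd and, with WT replicate 4 slightly above Notch2-mKO replicate 2, of Scd1, whereas Fabp4 does not follow this order.

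Apart from adipocyte markers and Mb, no cell type marker had an unadjusted p below 0.05. Red cell markers, which come from blood left in the muscle, summed to 214, 536, 983 and 390.4 CPM in Notch2-mKO diabetes and to 305, 334, 397 and 408 CPM in WT diabetes, so the Notch2-mKO libraries lay on both sides of the WT range. Their median log2 fold change was 0.60, with none of 4 at an unadjusted p below 0.05. Macrophage and leukocyte markers had a median of -0.26 over 10 genes (-0.20 without WT replicate 3), with 4 above 0 and 6 below. They summed to 58.6 to 77.1 CPM in Notch2-mKO and 67.1 to 83.1 CPM in WT, with overlap. The lowest log2 fold change of the 10 was that of Ptprc, the pan-leukocyte gene, which was weakly expressed. It had 0.392, 0.363, 0.316 and 0.345 CPM in Notch2-mKO diabetes against 0.417, 0.792, 0.652 and 0.537 CPM in WT diabetes. Its groups did not overlap, and its log2 fold change was -0.76 (SE 0.40, adjusted p = 0.872). Summed satellite cell markers were 11.6 to 17.4 CPM in Notch2-mKO and 12.9 to 14.2 CPM in WT. Endothelial, pericyte, fibroblast, Schwann cell and tendon markers also overlapped between the genotypes in their summed level, and in none of the marker lists was a marker at 0 in all 8 libraries.

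The genes with the smallest p in each direction, taken from genes at 2 CPM or more whose genotypes did not overlap, did not pass the adjusted test, and all had an adjusted p of 0.872. Among the 10 higher genes, Mlx, the partner of glucose-sensing transcription factors, had 9.44, 8.90, 10.4 and 10.1 CPM in Notch2-mKO diabetes and 7.69, 6.91, 7.36 and 6.89 CPM in WT diabetes (log2 fold change 0.43, SE 0.12). Eif4ebp2, a repressor of translation initiation, had 144, 173, 194 and 170.0 CPM in Notch2-mKO and 143, 137, 130.2 and 130.5 CPM in WT (0.33, SE 0.10). Mfap3l had the largest difference of the 10, with 5.34 to 7.78 CPM in Notch2-mKO and 3.13 to 3.801 CPM in WT (0.84, SE 0.20). The others were Prrg2, Tmem120a, the secretin receptor gene Sctr, the membrane protein gene Stom, the palmitoyltransferase gene Zdhhc9 and the histone genes Hist2h3c2 and Hist2h2aa2. Reads of these histone genes can be shared with near-identical copies, so their values are uncertain.

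Among the 10 lower genes, Pcf11, a factor of transcript cleavage and termination, had the smallest p of the 20, with 5.46, 4.16, 3.79 and 2.56 CPM in Notch2-mKO diabetes and 6.56, 6.46, 9.70 and 6.92 CPM in WT diabetes (log2 fold change -0.89, SE 0.20, unadjusted p = 0.000133). Rbm25, a splicing regulator, had 12.7 to 18.45 CPM in Notch2-mKO and 19.0 to 35.2 CPM in WT (-0.65, SE 0.19; -0.43 without WT replicate 3), and Sfrs18, a protein of nuclear speckles now named Pnisr, had a log2 fold change of -0.72 (SE 0.20). Ikzf2, a transcription factor of the Ikaros family, had 1.74 to 2.42 CPM in Notch2-mKO and 3.04, 3.64, 8.57 and 2.95 CPM in WT, and its log2 fold change of -1.08 came to -0.58 without WT replicate 3. The others were Samd8, Phip, Mpp5, the zinc transporter gene Slc30a7, the ubiquitin ligase gene Rnf146 and the adaptor gene Blnk. The higher genes had a median GC content of 54.35% and the lower genes one of 42.2%, against 49.96% for all genes tested. With the GC and length trend removed, 9 of the 10 higher and all 10 lower genes kept an unadjusted p below 0.05.

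The same 20 genes were then read in the unloading and control libraries. These did not enter the fold changes in diabetes, but they shared the estimate of spread in the fit that ranked the genes, and the p-values in unloading use the same estimate. In unloaded muscle, 10 of 10 higher genes and 10 of 10 lower genes had the same sign of the Notch2-mKO minus WT difference, and 6 and 5 of them had an unadjusted p below 0.05 in that direction, against 5.03% of all genes higher and 5.28% lower. The 2 differences also correlated over 9430 genes (Pearson r = 0.52), so some agreement extended beyond these 20 genes. The share of all genes with the same sign was not counted, so the 20 genes cannot be set against it. These unloading values were taken without removing the GC and length trend. Mpp5, a cell polarity protein, had a log2 fold change of -0.57 in diabetes and -0.59 in unloading, and Phip had -0.86 in diabetes, or -0.46 without WT diabetes replicate 3, and -0.75 in unloading. In control muscle, 4 of 10 and 2 of 10 had the same sign, and 0 and 0 had an unadjusted p below 0.05 in that direction, against 3.85% of all genes higher and 1.48% lower. None of the 20 was called in unloading, where the lowest adjusted p among them was that of Hist2h2aa2 (0.359).

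**Figure D5:**
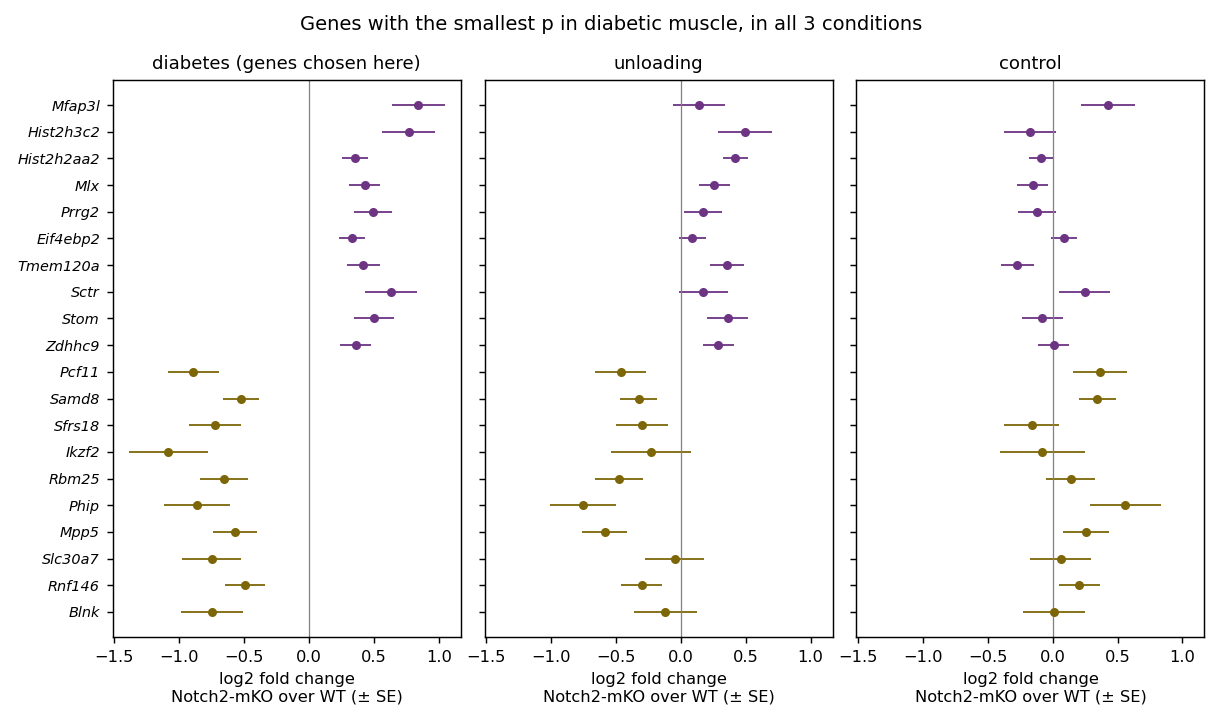
Log2 fold change, Notch2-mKO over WT, with its standard error, of the 10 higher (purple) and 10 lower (olive) genes with the smallest p in diabetic muscle, in diabetes (left, where the genes were chosen), unloading (middle) and control muscle (right). In unloading all 20 lie on the same side of 0 as in diabetes, and in controls 6 of 20 do.

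Over all 9430 genes at or above 2 CPM, the genotype difference in diabetes correlated across genes with that in unloading (Pearson r = 0.52, Spearman rho 0.53) and inversely with that in controls (r = -0.27, rho -0.30). These fold changes share no library, but genes are not independent replicates, and the libraries share the base composition trend, whose genotype difference had the same sign in diabetes (-0.21) and unloading (-0.37) and the opposite sign in controls (0.33). Once that trend was removed the correlations were 0.40 with unloading and -0.11 with controls. They were not computed without WT diabetes replicate 3. The difference between the genotype effects in diabetes and in unloading was tested for every gene, with 0 called (0%) and 239 at an unadjusted p below 0.05.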

How the data were processed

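Groups and replicate numbers of the 24 libraries come from the sample titles, and the members, gene lists and tests were chosen with earlier results of these data known. The authors deposited 4 tables of 36172 gene models, with estimated counts per gene as raw values and, per the file headers, normalized log2 values. The build is mm10 per the submitters' processing notes, while aligner and counter are not given in the sources used. The deposited log2 values are relative to controls of the same genotype, so they cannot compare genotypes and were not used. The tables were joined by gene ID.

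Estimated counts were rounded and tested with edgeR 4.0.16 (R 4.3.3), with 1 coefficient per group, TMM scaling, the default expression filter (13048 genes kept) and Benjamini-Hochberg adjustment over all genes at 0.05. The procedure was tested on simulated data. The common biological coefficient of variation was 20.0%. The GC and length trend of each library was removed through offsets from natural splines with 5 degrees of freedom. Coordinates come from annotation of the same build. DESeq2 1.42.0 was an alternative, with other scalings, filters and sample sets and with each diabetic library left out.

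Named genes are Notch2, Fbxo32, Trim63 and Fbxo30, the 10 genes per direction with the smallest p, at least 2 CPM and no overlap between genotypes, the 4 members of smallest p in each list described, and Notch receptors, ligands and targets at 2 CPM or more. Not all members chosen by this rule are printed in the Results. Other members named (Pdk4, Cdkn1a, Mstn, Fabp4, Lep and Myl1) were chosen after their values were seen. Of 760 list genes 739 were measured, 7 of them through older symbols. Expression levels in CPM are not scaled for gene length.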

Additional observations from a re-analysis of the deposited data

Results flagged for a closer look

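In 262 groups of 4 libraries (120 named genes, the summed marker lists and the base composition measure, in each genotype), 14 held a library far from the other 3, and chance flags about 1 in 20 groups. Of the 14, 6 were WT diabetes replicate 3. It was above its group for Ikzf2 (8.57 CPM, others 2.95 to 3.64), Jag1 (3.36 CPM, others 2.17 to 2.23), Furin (112.3 CPM, others 50.55 to 58.5), Pcf11 (9.70 CPM, others 6.46 to 6.92), Phip (15.01 CPM, others 6.21 to 7.34) and Lyz2 (21.7 CPM, others 12.65 to 14.1).

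Notch2-mKO diabetes replicate 4 stood apart for 5 genes. It was high for Mfap3l (7.78 CPM, others 5.34 to 5.70) and low for Ech1 (269 CPM, others 301 to 305), Loxl1 (10.6 CPM, others 15.9 to 16.7), Jag2 (17.9 CPM, others 21.7 to 22.0) and Hes1 (3.52 CPM, others 4.48 to 4.67). Notch2-mKO diabetes replicate 1 was high for Clock (12.6 CPM, others 10.3 to 10.6) and replicate 3 for Zdhhc9 (13.55 CPM, others 12.3 to 12.5). WT diabetes replicate 4 was high for Adipoq (6.82 CPM, others 1.74 to 2.33).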

How the results depend on the processing

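The count of called genes stayed at 0 under DESeq2, other scalings, no filter, the 8 diabetic or 16 control and diabetic libraries alone, the trend removed, a robust spread and the replicate block, and was 0 to 1 with a diabetic library left out. The 1 gene, A230073K19Rik, was called without WT replicate 1 (log2 fold change 5.36, adjusted p = 0.0221). It had 2.48 to 3.46 CPM in Notch2-mKO diabetes, 2.64 CPM in WT diabetes replicate 1 and 0.0428 to 0.0895 CPM in the other WT diabetes libraries. WT unloading replicate 2 was also near 0, at 0.0205 CPM, and all remaining libraries of the series had at least 0.82 CPM. The count at an unadjusted p below 0.05 was 641 to 884 under the other settings and 390 to 1278 with a library left out, lowest without Notch2-mKO replicate 3 and highest without WT replicate 1. DESeq2 called 3 differences in the diabetes response where edgeR called 0. The base composition difference was -0.21, and -0.18 with limits of 44 and 54% GC.

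Same-numbered libraries had correlations of deviations of 0.0517, -0.0298, 0.1031 and 0.0035, against -0.1014 to 0.0614 between libraries of different numbers. These few values cannot settle whether the libraries were paired. The replicate block in the 8 diabetic libraries gave 0 called and 805 at an unadjusted p below 0.05, against 884 without it in the same libraries, and 698 with the trend removed as well.

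Of 120 named genes, signs changed in 2 of 1196 results under other settings, both for Fbxo30, at 0.0446 with the trend removed and 0.0462 with the block added. Its difference in response likewise turned to 0.0691. With a library left out signs changed in 10 of 960. Log2 fold changes ranged from -0.10 to 0.48 for Hey2, -0.11 to 0.0863 for Hes6, -0.0053 to 0.67 for Beta-s (Hbb-bs), -0.31 to 0.0583 for Heyl, -0.0771 to 0.0245 for Jag2, -0.15 to 0.0822 for Notch3, -0.27 to 0.0943 for Ccnd1 and -9e-04 to 0.20 for Notch4. The cause was not tested. The median 95% interval reached 0.32 log2 units to each side, and differences larger than that were not called either.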
